A study of Mus musculus with 2 samples.

Results

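The genes described here are those of the ligands and receptors that steer growing axons, and the question is which of them carry binding sites of the transcription factor EGR1 in the adult mouse frontal cortex. They were chosen by symbol from the protein-coding genes of GENCODE release M21, which gave 67 of 21951 genes. The set holds 20 semaphorins of classes 3 to 7, 9 plexins, 2 neuropilins, 8 ephrins, 14 Eph receptors, 3 Slits, 4 Robos, the netrins Ntn1 and Ntn4, and 5 netrin receptors (Dcc and the Unc5 genes). The rule uses symbols only, though it was set with earlier results of these data known.

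EGR1 ChIP-seq, in which DNA bound by EGR1 is pulled down with an antibody and sequenced, was performed on micro-dissected frontal cortices of male F1 hybrid mice (strain C57BL6N/129SvEv) at 6 weeks of age, untreated as far as the labels say. Tissue of several mice was pooled for each of the 2 ChIP experiments, and an input DNA library of the same tissue was also made, whose reads were not analysed here. The peak list merges both experiments and gives the position of each of 12014 peaks with its irreproducible discovery rate (IDR), a measure like a false discovery rate that falls as the ranks of a peak in the experiments become higher and more similar. It holds no read counts, so the depth is unknown, the spread between the experiments could not be computed and no difference described here was tested. A gene without a peak is therefore one where no peak passed the IDR threshold at this depth, which does not show that EGR1 was absent, and the tissue label could not be checked against marker expression. The cortex holds neurons, glia and vessel cells, and a peak of the whole tissue cannot be assigned to any of them.

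Axon guidance molecules are read by the growth cone at the tip of an axon, where attraction or repulsion is passed to the cytoskeleton through small GTPases. Semaphorins act through plexins, with neuropilins as co-receptors for most secreted ones, ephrins act on Eph receptor kinases, Slits on Robos, and netrins on Dcc and the Unc5 receptors. In the mature cortex many of the same proteins are found at synapses, where they take part in spine shape and plasticity. EGR1 is a zinc finger protein made quickly after neuronal activity, and it recognises a GC-rich element with CpG dinucleotides.

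Of the 67 genes, 43 (64.2%, 95% Wilson interval 52.2 to 74.6) had a peak with its centre in the gene or within 10 kb of one of its transcription start sites (TSSs), beside 39.6% of all protein-coding genes. A peak within 2 kb of a TSS was present at 37 genes (55.2%, 43.4 to 66.5), beside 29.6% of all. Together the 43 genes held 86 peaks, and no peak belonged to more than 1 of them. A single peak was found at 23 genes, 2 peaks at 7 and 3 or more at 13. Having 3 or more peaks was found for 4.82% of all protein-coding genes. Intervals of this kind cover counting error over genes or peaks only, and neighbouring genes are not independent of each other.

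The sequences of some of these sites come first. They were taken from the 21 of the 86 peaks that hold an exact EGR1 element, so they do not represent the other peaks. The exact elements GCGTGGGCG and GCGGGGGCG were searched on both strands of each peak. All sequences are of the reference genome (mm10, read from GRCm38.p6), not of the hybrid mice, and the strand given is that on which the element reads as spelled here. The 4 peaks shown whole are, among those with an element, the ones of lowest IDR that do not overlap a UTR, and capitals mark the element. The Plxnb2 peak (chr15:89169551-89169762, plus strand) lies in an intron, 1032 bp from an internal TSS, and holds 2 elements that share 3 bases. The Efna3 peak (chr3:89320866-89321094, plus strand) lies in an intron 651 bp from a TSS. The Efna2 peak (chr10:80175732-80175857, minus strand) lies 3688 bp upstream of the gene, and the Plxnb1 peak (chr9:109095109-109095287, minus strand) 191 bp upstream.
Plxnb2 intron: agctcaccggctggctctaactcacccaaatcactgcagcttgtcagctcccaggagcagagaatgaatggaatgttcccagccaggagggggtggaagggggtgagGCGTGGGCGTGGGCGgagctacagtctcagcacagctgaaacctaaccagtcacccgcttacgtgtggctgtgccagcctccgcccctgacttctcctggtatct
Efna3 intron: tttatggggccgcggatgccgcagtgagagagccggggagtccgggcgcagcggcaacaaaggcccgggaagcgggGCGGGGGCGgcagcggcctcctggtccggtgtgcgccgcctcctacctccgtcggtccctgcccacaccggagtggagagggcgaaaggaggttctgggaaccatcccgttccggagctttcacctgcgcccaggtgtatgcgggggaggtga
Efna2 upstream: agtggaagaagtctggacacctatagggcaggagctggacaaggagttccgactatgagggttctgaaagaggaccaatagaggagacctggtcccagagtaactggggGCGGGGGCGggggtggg
Plxnb1 upstream: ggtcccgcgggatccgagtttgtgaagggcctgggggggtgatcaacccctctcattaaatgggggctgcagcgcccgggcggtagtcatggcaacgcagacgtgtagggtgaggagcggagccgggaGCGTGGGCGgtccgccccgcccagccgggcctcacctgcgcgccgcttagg

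Shorter stretches of 29 bases show the element with 10 bases to each side in other peaks, which were picked after their values were seen so that each ligand and receptor family with an element is represented. They lie at the TSSs of Plxna2 (chr1:194619732-194619760, plus strand), Efna3 (chr3:89323031-89323059, plus strand) and Slit2 (chr5:47983080-47983108, plus strand), at an internal TSS of Sema6d (chr2:124610370-124610398, plus strand), at the promoter of Sema3f (chr9:107710185-107710213, minus strand), in the 5′UTR of Ephb1 (chr9:102354460-102354488, plus strand) and in an intron of Epha5 (chr5:84318679-84318707, plus strand).
Plxna2 TSS: cgggcggggcGCGTGGGCGgggagggggt
Efna3 TSS: agcgcgccgcGCGTGGGCGacccatactg
Slit2 TSS: ggcgaggcttGCGGGGGCGgagccaaggg
Sema6d internal TSS: gcgtgtgtttGCGTGGGCGtagcgtcgta
Sema3f promoter: ccagggcgggGCGGGGGCGccgcccgcga
Ephb1 5′UTR: ccggagcgcgGCGTGGGCGtgggcgggag
Epha5 intron: agggggcgggGCGGGGGCGgcaggtgtgg
The Ephb1 site, like that in the Plxnb2 intron, reads on into a second overlapping copy of GCGTGGGCG.

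At least 1 exact element was present in 21 of the 86 peaks (24.4%, 16.6 to 34.5), in 15 genes, beside 16.6% of the 11938 peaks on assembled chromosomes. Of the 54 peaks within 2 kb of a TSS of their gene, 17 held one (31.5%, 20.7 to 44.7), and 22.6% of all peaks within 2 kb of a protein-coding TSS did. Among the 32 peaks farther away, 4 did (12.5%, 5.0 to 28.1), beside 7.7% of all peaks farther than 2 kb from any protein-coding TSS. These groups are not alike, since some of the 32 lie near a TSS of another gene. The shares of all peaks lie inside the last 2 intervals and, for the 86 peaks together, at the lower bound. Semaphorin peaks held the element in 8 of 21 cases, plexin peaks in 4 of 14, ephrin peaks in 3 of 13, Eph receptor peaks in 4 of 22 and Slit peaks in 2 of 7. None of the 4 Unc5a peaks, the 2 Robo peaks, the 2 netrin peaks and the Nrp2 peak had one.

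With up to 1 mismatch allowed, the element was present in 63 of the 86 peaks (73.3%), beside 69.8% of all peaks, so this share is near the background. Sites with a mismatch are shown for 3 of the peaks of lowest IDR without an exact match, picked after their values were seen. In the peak at the Ephb3 TSS (chr16:21204668-21204696, plus strand) the closest site differs from GCGTGGGCG by C2A, counted from 1 at the 5′ end with the base of the element first. The peak upstream of Unc5a (chr13:54948675-54948703, minus strand) differs from the same element by G1A. At the Sema4c TSS (chr1:36558225-36558253, minus strand) the site shown differs from GCGGGGGCG by G5T. Capitals mark the mismatched site.
Ephb3 TSS: ggcggtctgtGAGTGGGCGgccggcctct
Unc5a upstream: ggcgctggagACGTGGGCGtgatgcagga
Sema4c TSS: gcggagagcgGCGGTGGCGgcggctgcag

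The families differed in how many of their genes had a peak. The plot of shares by family sets each one beside the level of all protein-coding genes.

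**Figure D1:**
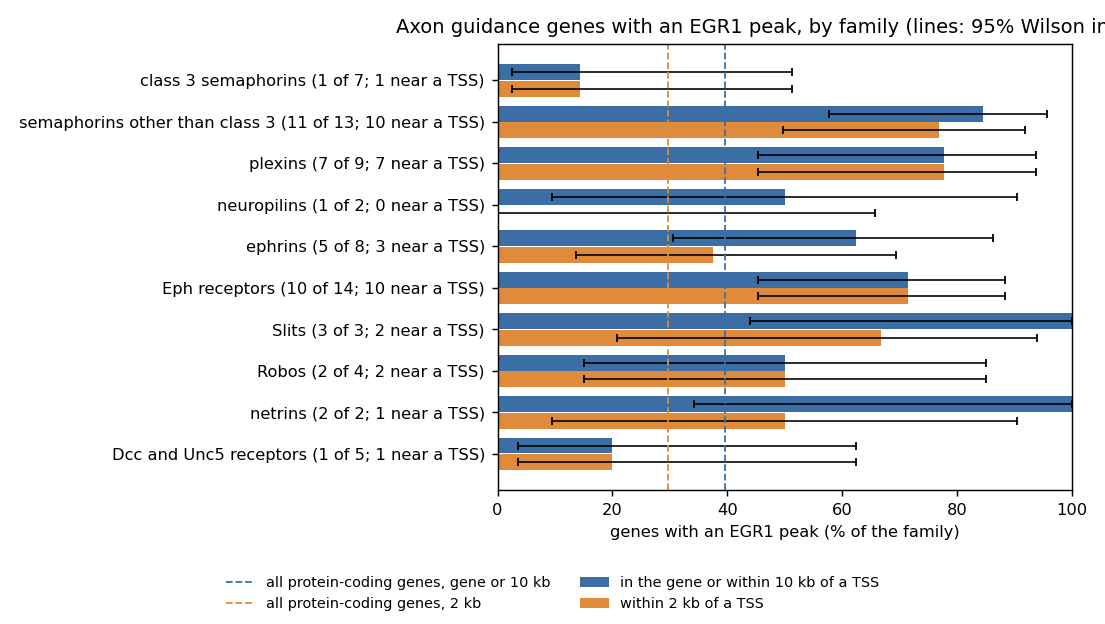
Share of the genes of each family with an EGR1 peak (x axis, %), by the rule of gene body or 10 kb (blue) and of 2 kb from a TSS (orange), with 95% Wilson intervals and dashed lines at the shares of all protein-coding genes, 39.6% and 29.6%. Class 3 semaphorins (1 of 7) and the Dcc and Unc5 receptors (1 of 5) lie below both lines, and the other semaphorins (11 of 13), plexins (7 of 9) and Eph receptors (10 of 14) above them.

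Among the ligands, 22 of 33 genes had a peak (66.7%, 49.6 to 80.2), and among the receptors 21 of 34 (61.8%, 45.0 to 76.1). Both groups held 43 peaks. The 2 intervals overlap over most of their length, so ligands and receptors could not be told apart by this share. Near a TSS the counts were 17 ligands and 20 receptors. The ligand genes with a peak but none near a TSS were Sema4a, Slit1, Efna5, Efnb1 and Ntn4, and the receptor was Nrp2.

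The counts of semaphorins with a peak differed by class. The class 3 semaphorins are secreted, and only Sema3f, a repellent that binds neuropilin 2, had a peak among these 7 genes (14.3%, 2.6 to 51.3). Its peak lay on chromosome 9 from 107710068 to 107710331, 180 bp from a TSS, with an IDR of 1.45e-05. The 6 without a peak were Sema3a, Sema3b, Sema3c, Sema3d, Sema3e and Sema3g. Of the 13 genes of the membrane-bound classes 4 to 7, 11 had a peak (84.6%, 57.8 to 95.7). The intervals of the 2 groups of semaphorins do not overlap, but they count each gene as independent. Sema3a, Sema3d and Sema3e lie in the same stretch of 5.57 Mb without a peak, so the class 3 genes are not 7 independent cases. The separation of the intervals therefore does not show that the classes differ. The difference itself was not tested.

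The class 4 semaphorins, which are transmembrane ligands mainly of B plexins, had 1 peak each at 5 of 6 genes. That of Sema4c, a ligand of plexin B2, lay 36 bp from its TSS with an IDR of 5.78e-08, the lowest of any semaphorin. Sema4a had a peak with an IDR of 2.11e-07 beyond the 3′ end of the gene, 5381 bp from an internal TSS. Sema4f had one 96 bp from its TSS (IDR 6.78e-06). Those of Sema4b and Sema4d, the ligand of plexin B1, had IDRs of 0.00945 and 0.0145, among the weaker ones in the list, and both lay at internal TSSs. Sema4g had none.

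Both class 5 semaphorins, which carry thrombospondin repeats, had peaks. Sema5a had 2 near its TSS (IDRs of 4.64e-07 and 0.00804), and both held the exact element. Sema5b had 4, of which 1 lay 83 bp from a TSS (IDR 0.0134) and 3 in an intron, with IDRs of 0.000327, 0.00673 and 0.0108. The intronic peaks were 43.9 to 55.3 kb from the nearest TSS of the gene and 2 of them lay within 2 kb of each other. Here the peak at the TSS had the highest IDR of the 4.

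Class 6 semaphorins are transmembrane ligands of A plexins. Sema6b had 4 peaks, 3 of them within 2 kb of its TSS, with IDRs from 7.13e-05 to 0.0148. A peak in a coding exon of Sema6b, 15850 bp from its 5′ end, lay nearer to a TSS of the neighbouring gene Lrg1 (2492 bp) than to its own (9350 bp). Sema6d had 3, and the one with the lowest IDR (6.58e-08) lay not at the 5′ end of the gene but 520.5 kb downstream of it, 124 bp from an internal protein-coding TSS. The 2 peaks at the 5′ end had IDRs of 0.000546 and 8.59e-05. Sema6a had 1 peak 358 bp upstream of its TSS (IDR 0.0011), and Sema6c had none. Sema7a, the only class 7 gene and a ligand held by a lipid anchor, had 1 peak 119 bp from a TSS with an IDR of 0.00797.

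The plexins are the signalling receptors of the semaphorins, and 7 of 9 had a peak (77.8%, 45.3 to 93.7), all of them within 2 kb of a TSS. Plxna2, a receptor of class 6 semaphorins, had the lowest IDR of the 86 peaks, 2.45e-08, which ranks 162 among the 12014 peaks. That peak lay on chromosome 1 from 194619659 to 194619918, 37 bp upstream of a TSS. Plxna2 had 3 further peaks, 1 of them 4.1 kb upstream and 2 in introns 41.2 and 58.6 kb from the nearest TSS.

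Plxnb2, which has the intronic pair of elements printed above, had 3 peaks with IDRs of 2.93e-08, 1.8e-07 and 0.00452. The peak with the IDR of 1.8e-07 lay beyond the 3′ end of Plxnb2 and 190 bp from a TSS of Mapk11, a stress-activated kinase, so it is nearer to that gene. Plxna4, a receptor for class 3 and class 6 semaphorins, had 3 peaks, with IDRs of 0.000205, 0.000549 and 0.00107. Plxnb1, Plxna3, Plxnd1 and Plxna1 had 1 each, with IDRs of 1.82e-06, 0.000412, 0.00438 and 0.0189. The Plxna1 peak, at an internal TSS, had the highest IDR of all 86. Plxnb3 and Plxnc1, the receptor of Sema7a, had none.

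Of the neuropilins, which bind class 3 semaphorins and also VEGF, Nrp2 had 1 peak in an intron 47.0 kb from its nearest TSS, with an IDR of 0.000378. Nrp1 had none, and the nearest peak to a TSS of it was 326318 bp away. No neuropilin had a peak near a TSS.

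Among the ephrins, which are tethered to the membrane and signal on contact, 5 of 8 had a peak (62.5%, 30.6 to 86.3), but only 3 near a TSS. Efna3 had 6 in a gene of 9.1 kb, from 98 bp upstream of its TSS to 7.3 kb downstream of its 5′ end. Its IDRs were 4.58e-08, 1.97e-07, 0.000236, 0.000553, 0.00257 and 0.0144, and the first 2 of these peaks held the exact element. The genes on either side, Efna1 and Efna4, encode ephrins of the same class and had no peak. The 3 genes lie on chromosome 3 between 89271733 and 89338028, and the nearest peaks to the TSSs of Efna1 and Efna4 were 33043 and 12300 bp away.

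Efna2 had 3 peaks. The one with the lowest IDR, 2.15e-07, lies 3688 bp upstream and 2850 bp from a TSS of 1600002K03Rik, and a second (IDR 0.014) is only 162 bp from a TSS of that gene. The third lay 156 bp upstream of the TSS of Efna2, with an IDR of 0.000546. Efna5, which forms gradients in retinal mapping, had a peak 3073 bp upstream of its TSS (IDR 0.000353) and another 254.4 kb downstream of a TSS, in an intron (IDR 0.0145). Of the ephrins B, which span the membrane, Efnb2 had 1 peak 163 bp upstream (IDR 0.00047), Efnb1 had 1 in an intron 3246 bp from a TSS (IDR 0.000309), and Efnb3 had none.

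The Eph receptors, kinases that bind ephrins, had a peak at 10 of 14 genes (71.4%, 45.4 to 88.3), each time within 2 kb of a TSS. For the A receptors the count was 6 of 9 and for the B receptors 4 of 5. The 13 peaks at B receptors had a median IDR of 5.87e-05 and the 9 at A receptors one of 0.00796, with no test of this difference.

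Ephb2, which binds NMDA receptors at the synapse, had 6 peaks, as many as Efna3. One lay 215 bp upstream of its TSS (IDR 5.09e-07) and 5 in introns, with IDRs of 5.46e-07, 2.16e-06, 0.000358, 0.00532 and 0.00985. These intronic peaks lay 48.8 to 145.7 kb from the 5′ end of a gene of 188.4 kb. By IDR the promoter peak ranked 2239 in the list, and those with the IDRs of 5.46e-07 and 2.16e-06 ranked 2320 and 3006. These 2 intronic peaks were 56.2 and 47.9 kb from the nearest TSS. Ephb3 had 2 peaks, and that at its TSS had the lowest IDR of any Eph receptor (5.68e-08). Ephb6, which lacks kinase activity, had 3, with IDRs of 5.89e-06, 5.87e-05 and 0.0175. Ephb1 had 1 at its 5′UTR (IDR 6.49e-05) and 1 in an intron 198.1 kb from the nearest TSS (IDR 2.53e-05). Ephb4, best known from blood vessels, had none.

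Epha4, which binds ephrins of both classes, had 3 peaks, with the one 140 bp upstream of its TSS at an IDR of 4.66e-05 and those in introns at 0.000121 and 0.0155. Epha7 had 1 peak 47 bp from its TSS (IDR 0.000176). Epha5 had 2 (IDRs of 0.00608 and 0.00796). Epha1, Epha3 and Epha10 had 1 each with IDRs of 0.0122, 0.0128 and 0.0186, all near the threshold of the list. Epha2, Epha6 and Epha8 had none.

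All 3 Slits, secreted repellents of crossing axons, had peaks. The peak of lowest IDR at Slit2 (1.29e-07) was centred 2 bp from its TSS, the smallest distance of the 86, and a second peak (IDR 0.000612) lay 1374 bp from a further TSS. Slit3 had 3 peaks, at IDRs of 0.000231, 0.00326 and 0.00917. Slit1 had 2 intronic ones, 31.6 and 45.8 kb from the nearest TSS, with IDRs of 0.0115 and 8.29e-05. Of their receptors, Robo1 and Robo3 had 1 peak each and Robo2 and Robo4 none. The Robo1 peak (IDR 0.000539) lay 127 bp from an internal TSS that is 354.8 kb from the 5′ end of the gene. Robo3, which lets commissural axons cross the midline, had its peak in an intron 711 bp from an internal TSS (IDR 1.28e-05). That peak is 17919 bp from the nearest TSS of the adjacent Robo4, a receptor of blood vessels, which is outside the limit of 10 kb.

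The netrins Ntn1 and Ntn4, laminin-related secreted cues, had 1 peak each, with IDRs of 0.000415 and 2.3e-06. That of Ntn1 lay 1734 bp from an internal TSS and that of Ntn4 in an intron, 32.0 kb from its nearest TSS. Among the netrin receptors, Unc5a had 4 peaks and the other 4 genes had none (20.0%, 3.6 to 62.4). Of the Unc5a peaks, 3 lay within 686 bp of the TSS, with IDRs of 1.05e-07, 0.00056 and 0.00175, and the fourth 6664 bp downstream (IDR 0.000174). Dcc, the receptor for attraction, and Unc5b, Unc5c and Unc5d, receptors for repulsion, were without a peak.

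**Figure D2:**
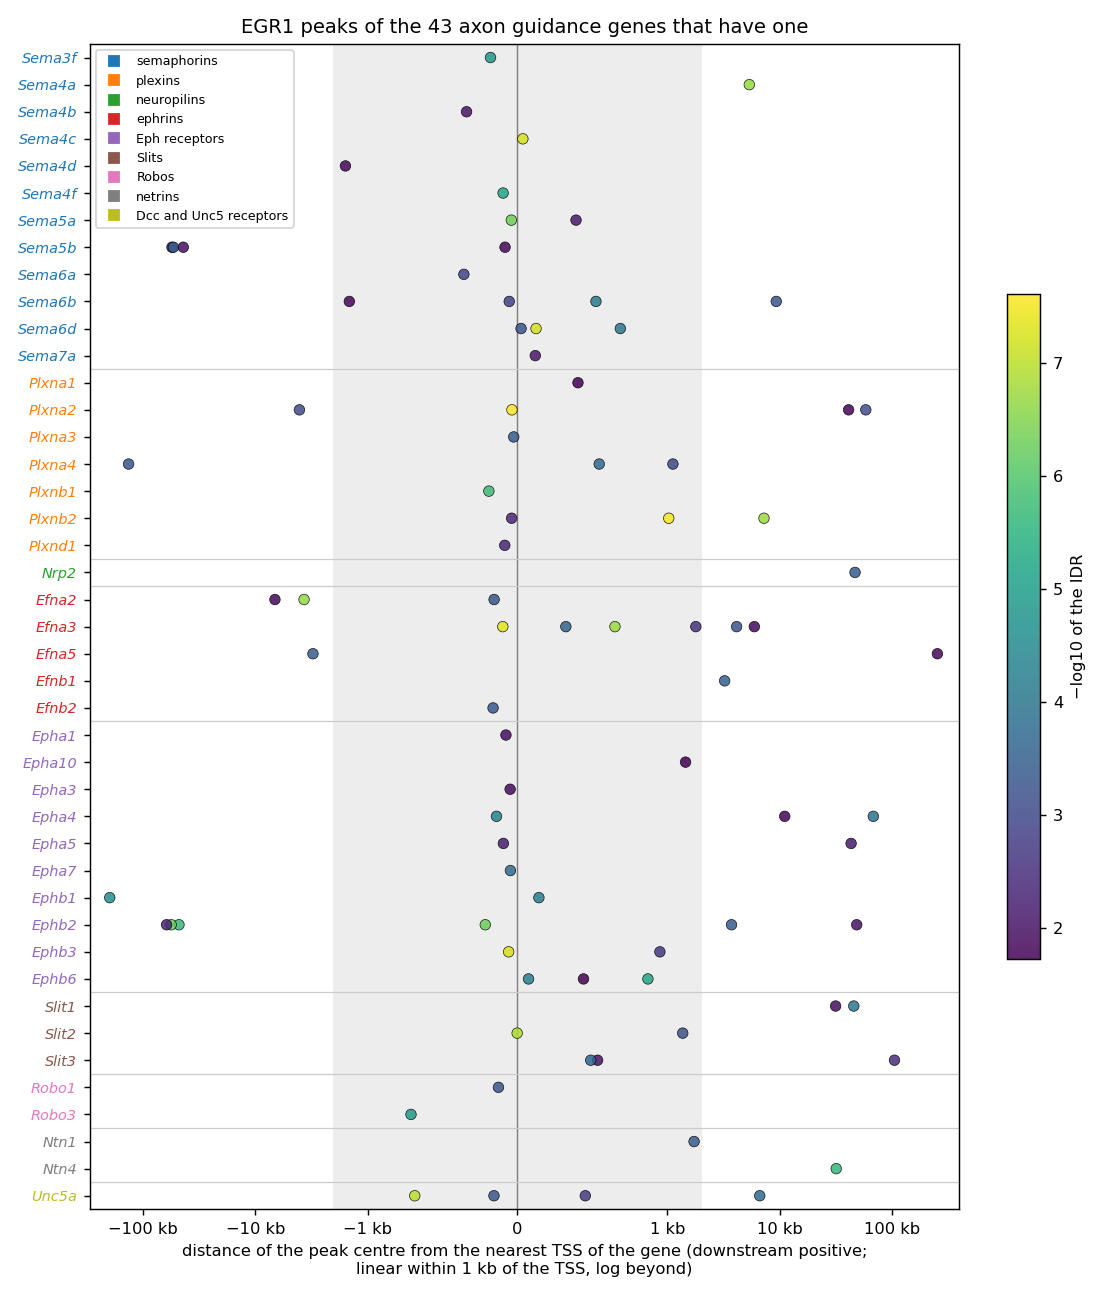
Position of each of the 86 peaks (points) relative to the nearest TSS of its gene, 1 row for each of the 43 genes with a peak, on an axis that is linear within 1 kb of the TSS and logarithmic beyond, where grey marks 2 kb to each side and colour the −log10 of the IDR. Of the peaks, 54 lie in the grey band and 20 are more than 10 kb from a TSS of their gene, among them 3 of Ephb2 and 3 of Sema5b that are nearest to an internal TSS downstream of them.

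The plot of positions shows how the peaks were spread. Of the 86, 29 (33.7%) had their centre within 250 bp of a TSS of their gene, beside 47.5% of the 10089 peaks at protein-coding genes, measured there to the nearest protein-coding TSS. At the other end, 20 (23.3%) lay more than 10 kb away, beside 14.3%. The axon guidance genes had a median length of 56.6 kb, against 17.4 kb for all protein-coding genes, and the part of gene length in these shares was not tested. By annotation, 47 peaks were intronic, 25 upstream of the gene, 7 in a 5′UTR, 3 in an exon of a transcript without coding sequence, 2 in a coding exon and 2 downstream of the gene.

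At 31 genes a peak lay within 2 kb of the 5′ end of the gene. For 6 further genes the peak near a TSS was at an internal one only: Ntn1, Plxna1, Robo1, Robo3, Sema4b and Sema4d. Internal TSSs of Efna3, Ephb6, Plxnb2, Sema6d, Slit2 and Slit3 had a peak in addition to one at the 5′ end. Of the 54 peaks near a TSS, 41 were nearest to that of a protein-coding transcript, and the others to transcripts of types such as processed transcript or retained intron. Peaks also lay close to one another, with 14 pairs of neighbours within 2 kb in 9 genes, 4 of them in Efna3. The counts of 5′ ends, internal TSSs, transcript types and close pairs were not computed over all protein-coding genes. They cannot be read as particular to the axon guidance genes.

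**Figure D3:**
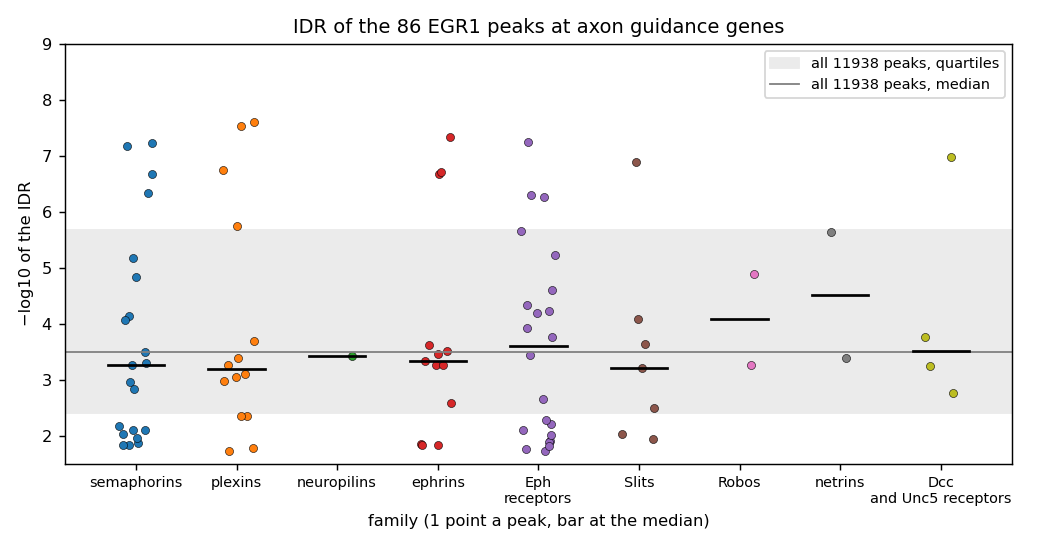
The −log10 of the IDR of each of the 86 peaks (points) by family, with the family median as a bar and the median and quartiles of all 11938 peaks on assembled chromosomes in grey. The points of most families run across the whole range, and 8 of the 86 peaks are among the 1200 with the lowest IDR.

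The IDRs of the 86 peaks ran from 2.45e-08 to 0.0189 with a median of 0.000483, against 0.000325 for all peaks on assembled chromosomes. In the plot of IDR by family the points overlap widely between families. An IDR of 0.001 or less was found for 53 of the 86 (61.6%), beside 59.5% of all peaks. The 8 peaks among the 1200 of lowest IDR lay within 2 kb of a TSS of their gene, as 1001 of the 1200 lay within 2 kb of a protein-coding TSS, and they belonged to Plxna2, Plxnb2, Efna3, Ephb3, Sema4c, Sema6d, Unc5a and Slit2. The peaks near a TSS of their gene had a median G+C content of 66.5% and the others 54.7%. Among all peaks, the medians were 65.9% within 2 kb of any protein-coding TSS and 52.7% farther away.

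Long genes offer more room for a peak, so the shares were also read by gene length. Of the 19 axon guidance genes under 20 kb, 10 had a peak (52.6%, 31.7 to 72.7), beside 31.3% of all protein-coding genes of that length. For 20 to 100 kb the count was 12 of 16 (75.0%, 50.5 to 89.8) beside 45.2%, and for 100 to 300 kb it was 12 of 17 (70.6%, 46.9 to 86.7) beside 59.2%. Of the 15 genes over 300 kb, 9 had one (60.0%, 35.7 to 80.2), which is below the 69.7% of all genes of that length. The share of all genes lay inside the interval for the longer 2 classes and below its lower bound for the shorter 2.

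Near a TSS the same counts were 9 of 19 beside 22.1%, 11 of 16 beside 36.6%, 8 of 17 beside 42.3% and 9 of 15 beside 46.7%, from the shortest class to the longest. CpG-rich promoters also had peaks more often among all genes. Here a gene counts as CpG-rich where the observed over expected CpG ratio reaches 0.6 within 500 bp of the TSS of any protein-coding transcript. Of the 54 CpG-rich axon guidance genes, 38 had a peak (70.4%, 57.2 to 80.9) beside 58.9% of all CpG-rich genes, and 33 had one near a TSS beside 48.6%. Of the other 13, 5 had a peak (38.5%, 17.7 to 64.5) beside 19.0% and 4 had one near a TSS (30.8%, 12.7 to 57.6) beside 9.47%. In percentage points, the gap to all protein-coding genes was thus smaller within each promoter class than without classes, and it was not tested.

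**Figure D4:**
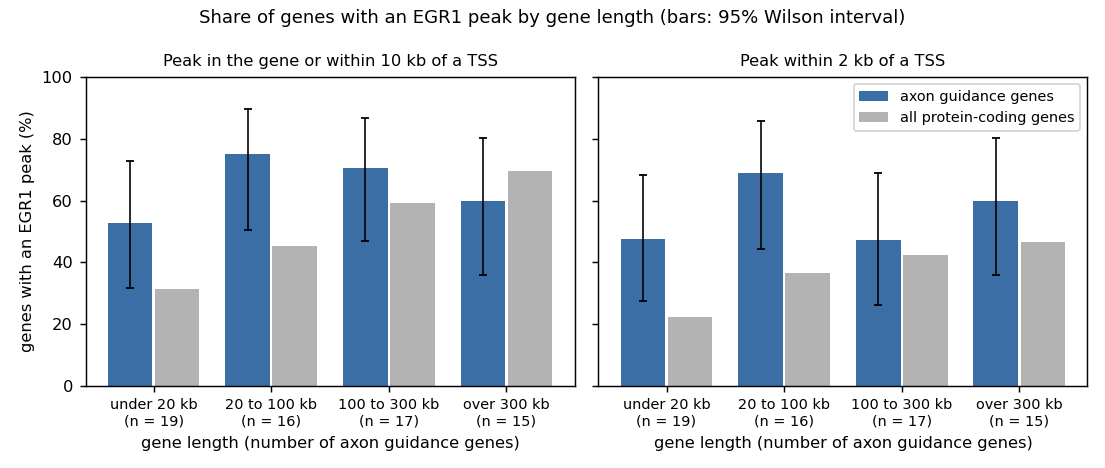
Share of genes with an EGR1 peak (y axis, %) by gene length for the axon guidance genes (blue, with 95% Wilson intervals) and all protein-coding genes (grey), by the rule of gene body or 10 kb (left) and of 2 kb from a TSS (right). The blue bar stands above the grey one in each class except for genes over 300 kb on the left, at 60.0% against 69.7%.

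The genes without a peak numbered 24: Sema3a, Sema3b, Sema3c, Sema3d, Sema3e, Sema3g, Sema4g, Sema6c, Plxnb3, Plxnc1, Nrp1, Efna1, Efna4, Efnb3, Epha2, Epha6, Epha8, Ephb4, Robo2, Robo4, Dcc, Unc5b, Unc5c and Unc5d. Some were close to the limit of 10 kb from a TSS. The nearest peak lay 12300 bp from a TSS of Efna4, 13365 bp from one of Robo2, 13799 bp from Sema3b and 13921 bp from Sema4g. Just inside it, outside the gene body, were the Plxnb2 peak at 7268 bp and the Efna2 peak at 6700 bp.

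Several, Robo2 among them, lay in long stretches of the genome without any peak. Between neighbouring peaks the median distance was 63.2 kb, and 524 of 11918 such gaps reached 1 Mb. Of the 24 genes, 9 lay in a gap of 1 Mb or more. The share of all genes lying in such gaps was not computed, and the share of gaps does not stand in for it. Sema3a, Sema3d and Sema3e, neighbours on chromosome 5, share a gap of 5.57 Mb between peaks centred at 9912007 and 15484263, which is the 16th longest and holds 24 protein-coding genes. Most of these 24 have symbols that begin with Gm or Speer. Sema3c, farther along the same chromosome, lay in a gap of 2.45 Mb. The class 3 semaphorins without a peak are thus not 6 independent cases, since 3 of them share 1 stretch.

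**Figure D5:**
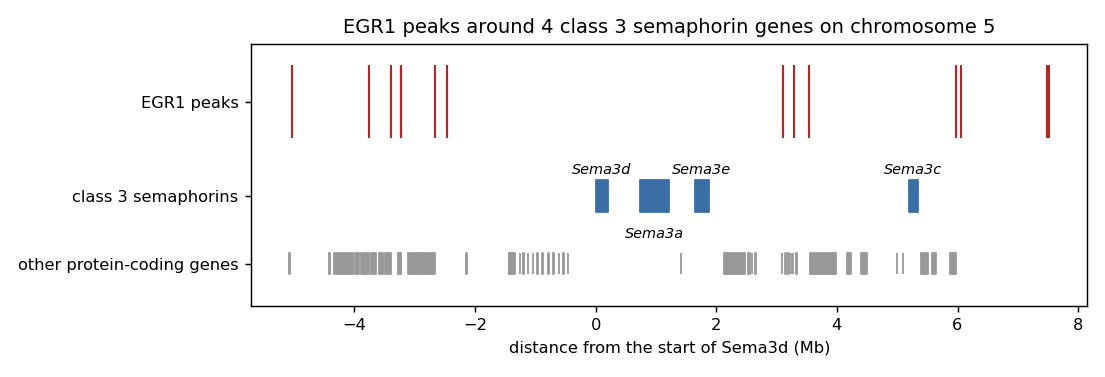
EGR1 peaks (red), the 4 class 3 semaphorin genes of chromosome 5 (blue) and other protein-coding genes (grey) by distance from the start of Sema3d in Mb. No peak lies in the 5.57 Mb around Sema3d, Sema3a and Sema3e, and Sema3c lies in a second gap of 2.45 Mb.

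The map of that region shows both gaps. Epha6, a gene of 952.0 kb, lay in a gap of 4.22 Mb, Unc5d in one of 3.75 Mb, Robo2 in one of 2.79 Mb, Dcc in one of 2.38 Mb and Nrp1 in one of 1.72 Mb. The remaining 15 genes without a peak were in gaps from 0.03 to 0.68 Mb. A long gap does not mean that its genes lie far from a peak, since Robo2 lies near the edge of its own, and in shorter gaps Unc5c and Plxnc1 lay 141799 and 138074 bp from the nearest peak. Sema3g lay 33608 bp from a peak with an IDR of 7.79e-08, and Unc5b 67701 bp from one of 4.54e-07.

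A list of 106 further genes, of other guidance cues and adhesion molecules and of proteins that act downstream of the receptors, was read in the same way. Of these, 73 (68.9%, 59.5 to 76.9) had a peak, beside 39.6% of all protein-coding genes, and 60 (56.6%, 47.1 to 65.6) had one near a TSS, beside 29.6%. Their median length was 93.6 kb and 81 of them were CpG-rich, and a peak was present at 45.2% of all genes of 20 to 100 kb, at 59.2% of those of 100 to 300 kb and at 58.9% of all CpG-rich genes. GTPase regulators had one at 16 of 22 genes, with 12 peaks at Kalrn, an exchange factor of dendritic spines, and 5 each at Trio and Tiam1. Of these peaks, 1 at Kalrn and 2 each at Trio and Tiam1 lay near a TSS, in genes of 604460, 295198 and 356659 bp. Kinases and adaptors had a peak at 17 of 22, led by the adaptor Bcar1 with 4. Cytoskeletal effectors had one at 14 of 21, led by Mical2 and Ablim1 with 7 each. Adhesion molecules and other cues had one at 19 of 28, led by Lingo1 with 7, and Dscam and Ntn3 with 4.

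In these 4 groups the genes without a peak were Arhgef11, Chn1, Chn2, Farp2, Tiam2 and Vav3 among the GTPase regulators, Limk2, Met, Nck2, Pak3 and Yes1 among the kinases and adaptors, Dcx, Dpysl3, Dpysl4, Enah, Evl, Gap43 and Vasp among the cytoskeletal effectors, and Cntn2, Cntn3, Cntn6, Draxin, Flrt1, Flrt3, Neo1, Nrcam and Ntn5 among the adhesion molecules and cues.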

How the data were processed

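EGR1 ChIP-seq peaks of frontal cortex were analysed as 1 merged sample of 2 ChIP experiments; the input DNA was not analysed here. Per the study's methods, the authors mapped trimmed reads to mm10, called peaks with SPP and merged those reproducible between experiments at an IDR of 2%; their processing notes list cutadapt 11.2, Bowtie2 2.2.9 and bedtools 2.26.0, without roles. The deposited values are the positions of 12014 peaks and an IDR, read like a q-value. Depth is unknown.

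Positions were read as in BED files, which the authors do not state, and printed counted from 1. Peak centres were assigned to genes of GENCODE M21 in the gene body or within 10 kb of any annotated TSS, or within 2 kb for promoters. The 76 peaks on scaffolds were left out of sequence counts. The assignment was tested on simulated data. Shares carry 95% Wilson intervals, and no test was made. Of the 67 genes, all without a peak, and in each family those with most peaks, the lowest IDR or a peak near a TSS, are named. The genes and lists were chosen with earlier results of these data known. Python 3.11.15, pandas 2.3.3, scipy 1.17.1, pysam and samtools 1.23.1 were used. A further group of the 106 pathway genes and the sequence of a site are not reported here.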

Additional observations from a re-analysis of the deposited data

How the results depend on the processing

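The share of genes with a peak stayed between 56.7% and 64.2% under 7 alternatives (shorter TSS distances, no gene body, protein-coding TSSs only, any overlap, peaks nearer another gene left out, and an IDR of 0.01 or less), and the share near a TSS between 46.3% and 58.2% under 5, all inside the interval of the value reported. Over all protein-coding genes the same alternatives gave 31.3% to 39.6%, and 26.6% to 32.7% near a TSS. Stricter peak lists moved both shares of the axon guidance genes. With an IDR of 0.001 or less, 49.3% had a peak (28.9% of all protein-coding genes), with 53 peaks in all, and 38.8% had one near a TSS (21.4%). Keeping only 50% of the list, by lowest IDR, these values were 38.8% (25.8%), 36 peaks and 31.3% (19.1%). These lists hold fewer peaks by construction. The number of peaks was 66 to 86 under the other 7. The exact element was found in 9.3% of peaks (8 of 86) for GCGTGGGCG alone, beside 526 of all 11938 peaks on assembled chromosomes. With 1 mismatch allowed it was found in 73.3%, beside 69.8% of all. Under 4 other alternatives the share was 24.4% to 33.3%, and the shares of all peaks under these were not computed. Class 3 semaphorins stayed at 14.3% and the Dcc and Unc5 receptors at 20.0% under all 9 alternatives. Except for any overlap, these alternatives could only take peaks away from a gene, so the low shares could not rise under them. No distance longer than 10 kb was tried. Of 90 family shares recomputed, 6 left the interval of the value reported, and Nrp2 was the 1 neuropilin lost in 2 of these. The others fell under the stricter lists. Eph receptors went from 71.4% to 42.9% in both, beside 28.9% and 25.8% of all protein-coding genes. With 50% of the list, plexins went from 77.8% to 44.4% and semaphorins from 60.0% to 35.0%.

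No paired analysis was possible because the list merges both ChIP experiments and no test was made, and no replicate was left out for the same reason. Families of 2 to 9 genes give wide intervals.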

Other observations

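The EGR1 element was also looked up in promoters, whether or not they held a peak. RefSeq promoters (GRCm38.p6, 250 bases before to 50 after each start) were matched by symbol for 57 of the 67 genes, with 73 promoters. GCGTGGGCG or GCGGGGGCG, on either strand, stood in 9 of them (12.33%), beside 3.47% of all 32851 promoters. Those 32851 carry 27025 gene symbols and were not limited to protein-coding genes, so the 2 sets are not alike. The 9 genes were Efna3, Epha1, Epha8, Plxna2, Plxnb2, Sema4g, Sema5a, Sema6b and Slit2, and 7 of them had a peak within 2 kb of a TSS. The same share over all genes with the element in a promoter was not computed, so this count cannot be read as particular to these genes. Epha8 and Sema4g carried the element without a peak. Their nearest peaks were 62629 and 13921 bp from a TSS. A match is a description of the sequence, and the difference from all promoters was not tested. The element is GC-rich, and 54 of the 67 genes were CpG-rich, beside 11238 of 21951 protein-coding genes.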
